A study of Mus musculus with 4 samples.

Results

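The 10 genes described here encode heat shock proteins and chaperones, proteins that help other proteins to fold: Hspa8, Hspa4, Hsph1, Dnaja1, Hsp90aa1 and Hsp90ab1 of the cytosol and nucleus, Hspa5 of the endoplasmic reticulum (ER), and Hspa9, Hspd1 and Hspe1 of the mitochondrion. The members were all probe sets, the groups of short probes that read 1 transcript, that the platform annotation assigns to these symbols. They were 23 of the 22626 non-control probe sets present on both array types, with 6 more on the larger array only. No probe set matched Hsp90ab1, which is not analysed here, so the values cover 9 of the 10 genes.

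Granulocyte/monocyte progenitors (GMP), bone marrow cells that give rise to granulocytes and monocytes, had been sorted by flow cytometry from Icsbp-deficient mice and from wild type mice aged 10 to 16 weeks. Icsbp is the older name of Irf8, a transcription factor that steers these progenitors between the monocytic and the granulocytic path. There were 2 Icsbp-deficient and 2 wild type preparations, and each genotype had 1 on the Affymetrix 430A array and 1 on the MOE430_2 array. Each preparation pooled marrow of at least 8 Icsbp-deficient or at least 10 wild type mice, so differences between animals cannot be seen. The wild type 430A sample came from a mixed C57/Bl6 and S129Ola background and was placed in its group through the series' design text, since its own label names no genotype. The sources used here do not give the strain of the other mice, the deleted part of the gene or the labelling kit of the wild type 430A sample.

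Chaperones work as machines. A protein of the HSP70 family, such as Hspa8, holds an unfolded chain while it uses ATP, a J protein such as Dnaja1 delivers the chain and starts ATP use, and a nucleotide exchange factor such as Hspa4 or Hsph1 resets the cycle. HSP90 then matures selected clients such as kinases and steroid receptors, and the mitochondrion has its own HSP70 (Hspa9) and a barrel-shaped chamber built by Hspd1 and closed by its lid Hspe1. Many of these genes are turned on by heat shock factor 1 through heat shock elements, arrays of the unit GAA and its complement TTC, while Hspa5 is a classical target of the unfolded protein response of the ER.

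The 4 arrays carried the transcripts of GMP. The azurophil granule genes Mpo, Elane, Prtn3 and Ctsg had scaled signals between 13745 and 32707 on every array, while the T cell genes Cd3d, Cd3e and Cd3g lay between 2.18 and 119.7. Of 8 GMP markers in all, 1 fell and 1 rose by limma. Cd34, a surface marker of progenitors, read 819 and 811 in Icsbp-deficient GMP against 2625 and 3032 in wild type GMP (-1.73 on the log2 scale, adjusted p = 3.3e-05). The Fc receptor gene Fcgr3 read 4899 and 6337 in Icsbp-deficient against 2432 and 2994 in wild type GMP (1.00, adjusted p = 2.7e-04). Of 8 markers of later neutrophils 8 rose in Icsbp-deficient GMP, with summed signals of 29246 and 55328 in Icsbp-deficient GMP against 10631 and 19931 in wild type GMP (430A and MOE430_2 arrays). Of 8 eosinophil, basophil and mast cell markers 8 fell, with sums of 2184 and 2200 in Icsbp-deficient and 6265 and 8916 in wild type GMP. Of 8 erythroid markers 5 were tested and 2 fell, Car1 at -2.37 and Car2 at -2.21, with sums of 749 and 272 in Icsbp-deficient and 1565 and 2009 in wild type GMP. Of 5 megakaryocyte markers 3 were tested and 1 fell, Itga2b at -0.86 (adjusted p = 0.0109), with sums of 722 and 274 against 917 and 492. The single tested B cell marker, Cd79b, did not pass. The single tested T and NK cell marker, Nkg7, is listed with the Cd3 genes but was bright on every array. It read 4919 and 5103 in Icsbp-deficient against 5599 and 6228 in wild type GMP and did not pass (limma adjusted p = 0.120). Of 6 proliferation genes 5 were tested and 0 passed the test by limma (1 at an unadjusted p under 0.05), with sums of 20397 and 27389 against 21393 and 28108. The part of these differences in the results below was not tested, and in sorted pools fewer cells of a type and less RNA per cell cannot be told apart. The first Irf8 probe set read 2776 and 2725 in Icsbp-deficient and 3059 and 4798 in wild type GMP (-0.48, adjusted p = 0.124). The second read 3234 and 1892 against 3074 and 1847 (0.06, adjusted p = 0.832). The targeted gene was thus still detected, and this does not check the labels because the deleted part is not known.

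The member probe sets lay below 0 in Icsbp-deficient GMP by modest amounts, and 4 of them passed the test. All 22 tested member probe sets had a mean log2 ratio of Icsbp-deficient over wild type below 0, between -0.73 and -0.01, with a median of -0.30. Over all 13576 tested probe sets the median was -0.01, and 51.4% lay below 0. Of the members, 4 passed the test as lower and 0 as higher (limma, adjusted over all tested probe sets, threshold 0.05). They were the single Hspd1 probe set and 1 probe set each of Hsph1, Hspe1 and Hspa8. Over all tested probe sets 2.14% were called lower and 2.99% higher. At an unadjusted p under 0.05 the counts were 13 of the 22 members and 2522 of all tested probe sets, in either direction. The ratio was below 0 on both array types for 18 of the 22, against 32.8% of all tested probe sets.

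The direction was seen on each array type alone. Each type held 1 array per genotype, so genotype cannot be told apart there from other differences between the preparations. On the 430A type the labelling kit of the wild type sample is not known. The median log2 ratio of the members was -0.30 for the 430A type and -0.28 for the MOE430_2 type, while that of all tested probe sets was -0.01 on both. A ratio at least 1.5-fold lower was reached by 4 members among the 430A arrays, where 4.77% of all tested probe sets reached it, and by 3 among the MOE430_2 arrays, where 4.62% did. For 9 of the 22 members both Icsbp-deficient arrays read below both wild type arrays on the scaled signal, against 13.2% of all tested probe sets. Most members are abundant transcripts, with 15 of the 22 above the 80th percentile of tested probe sets by mean signal, and the median log2 ratio over all 2716 probe sets above that percentile was -0.02. The ratios rest on quantile normalization within each array type. It lowered the ratios of the brightest members on both array types, and by more on the MOE430_2 arrays. For example, Hspa8 1420623_x_at read 12934 in Icsbp-deficient against 12977 in wild type GMP on the MOE430_2 arrays and had a log2 ratio of -0.23. The median above the 80th percentile covers a wider range of signal than these members. With scaling alone 20 of the 22 were below 0 and the median was -0.23.

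**Figure D1:**
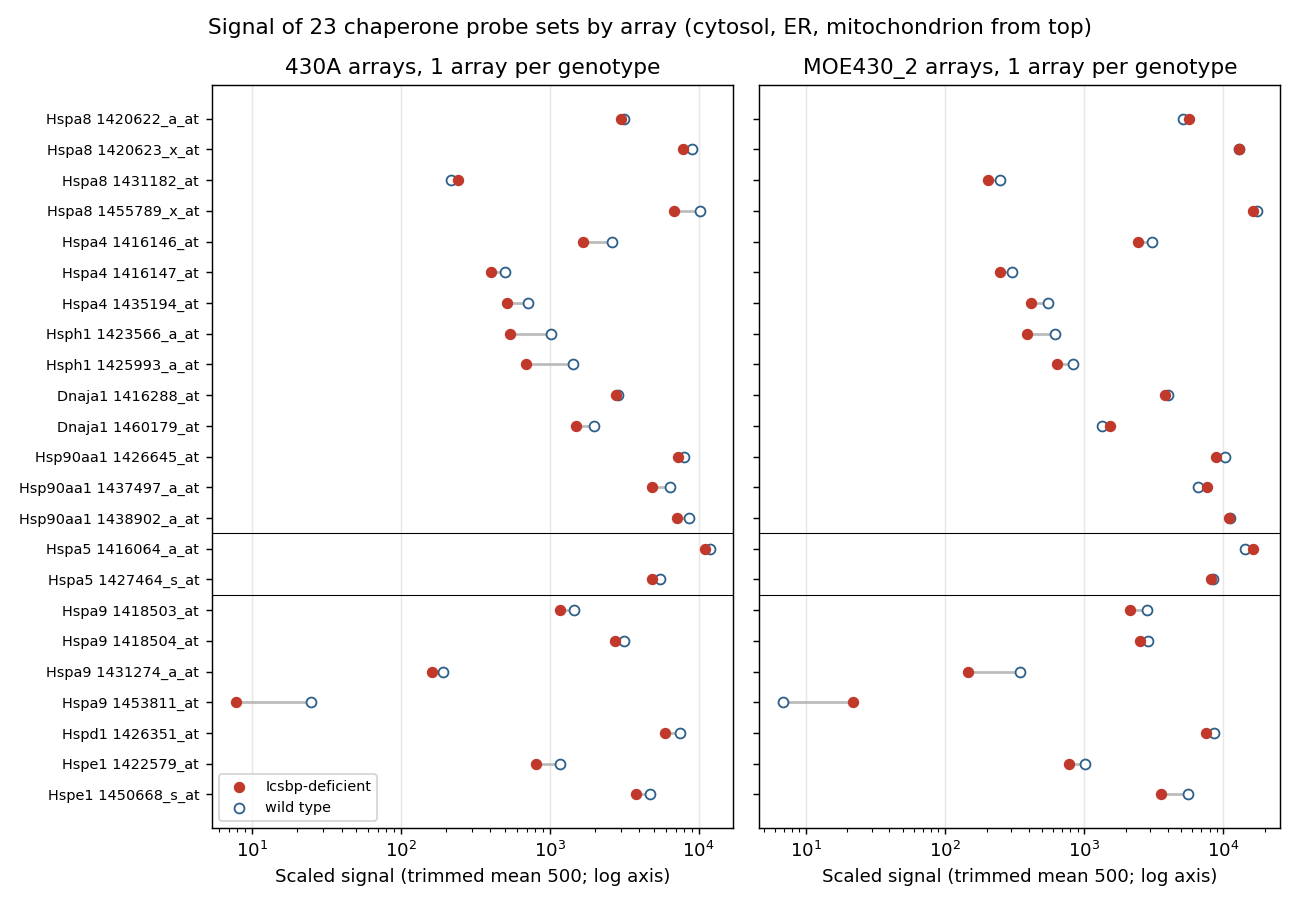
Scaled signal (log axis, each array scaled to a trimmed mean of 500) of the 23 member probe sets on the 430A arrays and the MOE430_2 arrays, with 1 Icsbp-deficient (filled) and 1 wild type (open) array in each. The Icsbp-deficient point lies left of the wild type point for most probe sets, and both Hsph1 probe sets show wide gaps on the 430A arrays, at 543 and 689 against 1026 and 1439.

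**Figure D2:**
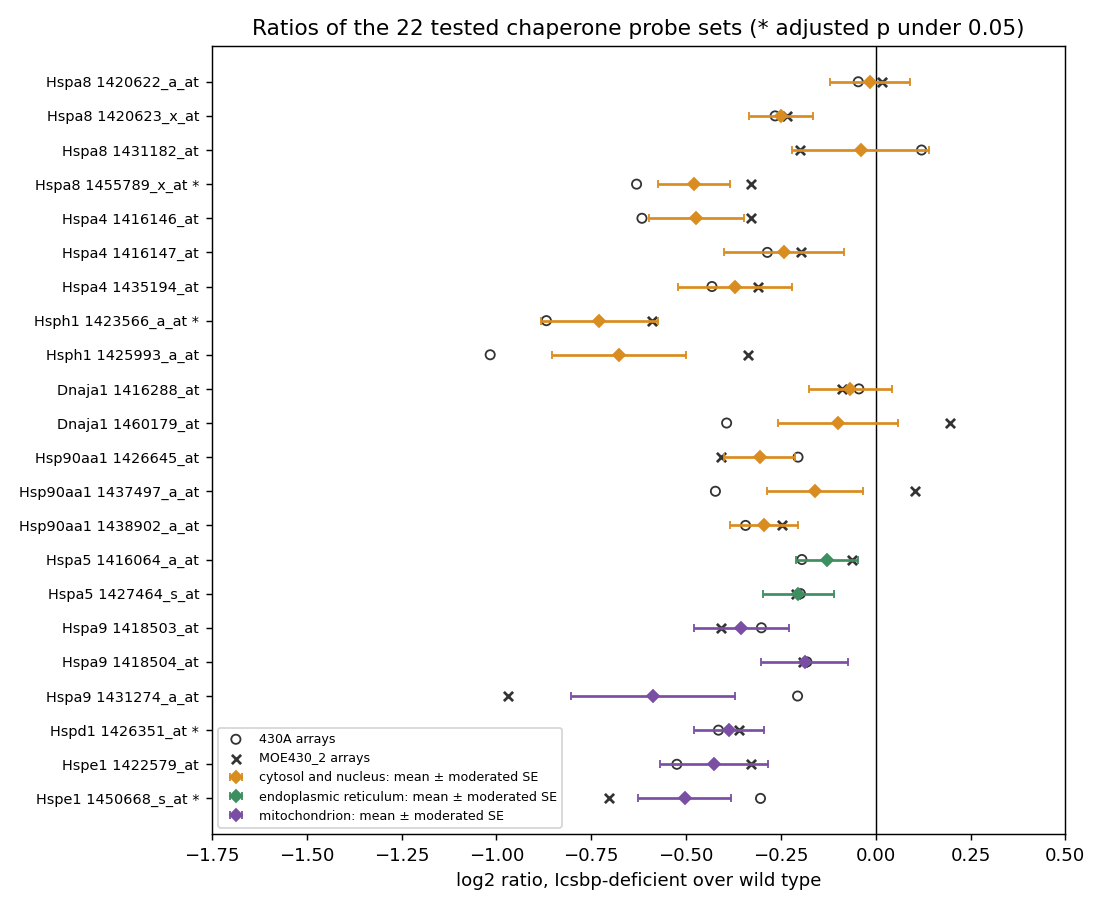
Log2 ratio of Icsbp-deficient over wild type for the 22 tested member probe sets, with the ratio on each array type (circle, 430A; cross, MOE430_2) and their mean with its moderated standard error (diamond, coloured by compartment). The means lie between -0.73 and -0.01, and an asterisk marks the 4 probe sets with an adjusted p under 0.05.

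**Figure D3:**
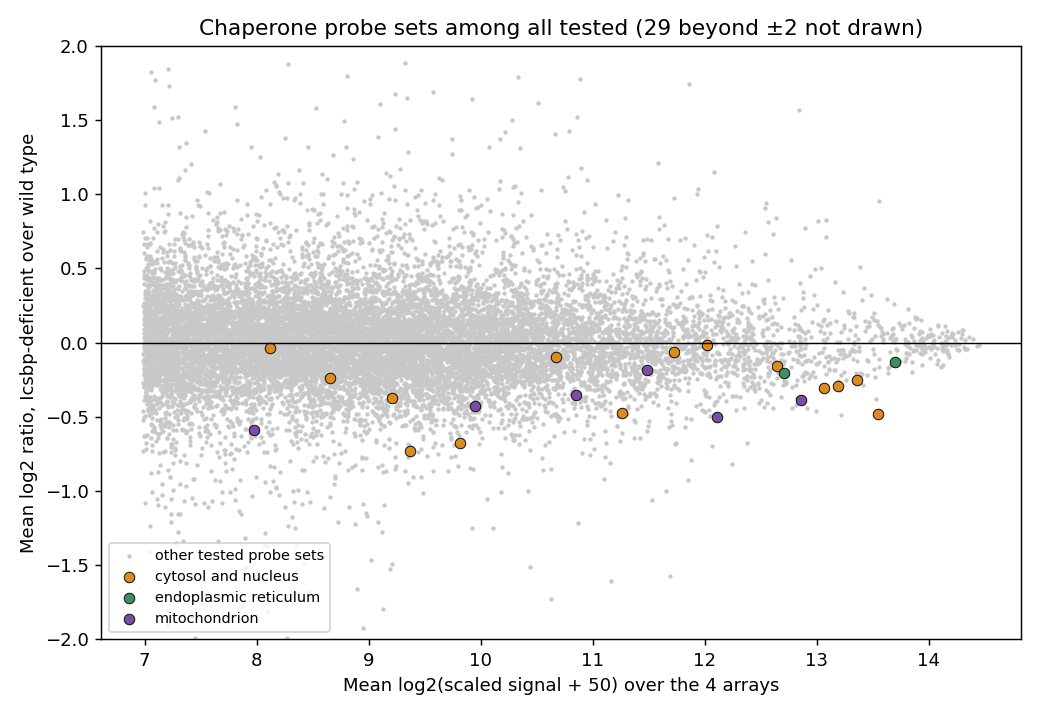
Mean log2 ratio against mean log2(scaled signal + 50) over the 4 arrays for all 13576 tested probe sets (grey, 29 of them beyond the axis) and the 22 tested members (coloured by compartment). The members lie below 0 across the range of signal, with a median of -0.30.

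The deepest difference was in Hsph1, the cytosolic HSP110 that exchanges nucleotide on HSP70 and holds unfolded chains itself. Its probe set 1423566_a_at had a scaled signal of 543 and 390 in Icsbp-deficient GMP (430A and MOE430_2 arrays), against 1026 and 625 in wild type GMP. Both Icsbp-deficient arrays read below both wild type arrays. It fell 1.66-fold, a mean log2 ratio of -0.73 ± 0.15 (moderated standard error over the ratios of the 2 array types; limma adjusted p = 0.0250). The other probe set, 1425993_a_at, read 689 and 638 in Icsbp-deficient against 1439 and 834 in wild type GMP, at -0.68 ± 0.18 (adjusted p = 0.0601). The groups were again apart, and the ratio was larger on the 430A arrays, at -1.02, than on the MOE430_2 arrays, at -0.34.

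Hspd1 and Hspe1, the barrel and lid of the mitochondrial chaperonin, were both lower. Hspd1 (1426351_at) read 5899 and 7527 in Icsbp-deficient GMP, against 7530 and 8661 in wild type GMP. It fell 1.31-fold, at -0.39 ± 0.09 (limma adjusted p = 0.0423), with ratios of -0.41 and -0.36 on the 430A and MOE430_2 arrays that were close to each other. With scaling alone it was at -0.28 and did not pass (adjusted p = 0.246). Hspe1 (1450668_s_at) read 3790 and 3611 in Icsbp-deficient against 4690 and 5642 in wild type GMP. It fell 1.42-fold, at -0.50 ± 0.12 (adjusted p = 0.0447). The second Hspe1 probe set, 1422579_at, read 811 and 786 in Icsbp-deficient against 1180 and 1019 in wild type GMP, at -0.43 ± 0.14 (adjusted p = 0.135). For all 3 probe sets of this chamber the Icsbp-deficient arrays read below both wild type arrays. For Hspd1 the margin was very small, 7527 on the MOE430_2 array against 7530 on the 430A array. The ending _s_at marks a probe set whose probes may match more than 1 transcript.

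The barrel and lid genes lie head to head, which is why the sequence between them is shown. In the RefSeq promoter table (GRCm38.p6), which matched 6 of the 10 members, one Hspd1 start lies 216 bases from the Hspe1 start, on the opposite strand, and another Hspd1 start lies beyond the Hspe1 start. The stretch between the facing starts is chr1:55087933-55088147, shown 5′ to 3′ on the plus strand with capitals for the units TTC and GAA where they stand as a pair 2 bases apart (TTCNNGAA or GAANNTTC). Single units stay in lower case.
Hspd1 and Hspe1: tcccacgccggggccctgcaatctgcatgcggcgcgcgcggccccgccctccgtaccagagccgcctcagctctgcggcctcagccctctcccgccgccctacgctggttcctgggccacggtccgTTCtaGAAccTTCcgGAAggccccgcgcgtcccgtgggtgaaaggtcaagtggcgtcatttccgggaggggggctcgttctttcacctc
It holds 4 alternating units in a row (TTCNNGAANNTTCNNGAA), found in 5 of the 32851 promoter windows of the table (0.0152%). Of these 5 windows 2 are those of Hspd1 and Hspe1, which share this 1 stretch. The 250 bases before the upstream Hsph1 start (chr5:149636337-149636586, minus strand) and before the first Dnaja1 start (chr4:40722218-40722467, plus strand) are shown in the same way.
Hsph1: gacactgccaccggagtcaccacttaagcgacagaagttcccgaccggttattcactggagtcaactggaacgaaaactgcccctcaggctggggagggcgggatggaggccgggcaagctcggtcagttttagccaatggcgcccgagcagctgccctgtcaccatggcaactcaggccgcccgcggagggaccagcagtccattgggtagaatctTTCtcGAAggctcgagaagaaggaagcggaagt
Dnaja1: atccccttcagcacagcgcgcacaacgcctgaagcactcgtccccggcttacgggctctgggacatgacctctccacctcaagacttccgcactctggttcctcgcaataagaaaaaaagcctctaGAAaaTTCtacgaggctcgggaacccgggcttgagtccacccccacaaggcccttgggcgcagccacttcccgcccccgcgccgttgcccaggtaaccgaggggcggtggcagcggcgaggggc
A pair of units, TTCNNGAA or GAANNTTC, was found in 5 of the 10 member windows and in 15.1% of all windows of 300 bases. Each pair reads the same on both strands, and in the 4-unit run the pairs overlap. The 5 windows belong to 4 of the 6 matched member genes, Hspd1, Hspe1, Hsph1 and Dnaja1, and those of Hspd1 and Hspe1 share 1 stretch. Hsph1 has more than 1 of these windows, and they overlap, so the 5 windows are not separate sites. Further Hsph1 pairs lie after its upstream start, at bases 36 to 43 and 41 to 48, outside the stretch shown. Hspd1, Hspe1 and Hsph1 each had a probe set that fell, while neither Dnaja1 probe set passed the test. The matched genes Hspa4 and Hspa5 had no pair, and Hspa4 fell when read by its brightest probe set (limma adjusted p = 0.0439). Hspa8 had no window in the promoter table. A link between the pairs and the ratios was not tested. A match of letters is a description and not a binding site.

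Hspa9, the mitochondrial HSP70 that imports and folds matrix proteins, did not pass the test on any of its 3 tested probe sets. The brightest, 1418504_at, read 2738 and 2525 in Icsbp-deficient GMP against 3134 and 2904 in wild type GMP, at -0.19 ± 0.11 (limma adjusted p = 0.430). The groups were apart, with ratios of -0.18 and -0.19 on the 430A and MOE430_2 arrays. Probe set 1418503_at read 1170 and 2149 in Icsbp-deficient against 1449 and 2862 in wild type GMP, at -0.35 ± 0.13 (adjusted p = 0.161), and was lower within each array type although the groups overlapped across types. The dimmer 1431274_a_at read 161 and 147.5 against 191 and 347, and its ratios of -0.21 and -0.97 differed widely between array types (adjusted p = 0.174). The fourth, 1453811_at, read between 6.86 and 24.8 on all arrays and fell below the signal filter. Over the 6 tested mitochondrial member probe sets the median log2 ratio was -0.41.

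Hspa8, the constitutive HSP70 of the cytosol, gave different values on its 4 probe sets. The bright 1455789_x_at read 6868 and 16552 in Icsbp-deficient GMP, against 10137 and 17486 in wild type GMP. It fell 1.39-fold, at -0.48 ± 0.10 (limma adjusted p = 0.0193), with a ratio of -0.63 for the 430A type and -0.33 for the MOE430_2 type. With scaling alone it was at -0.32 and did not pass (adjusted p = 0.224), and without the Icsbp-deficient 430A array, in the fit with no block, it was at 0.10. The equally bright 1420623_x_at read 7857 and 12934 in Icsbp-deficient against 8994 and 12977 in wild type GMP, at -0.25 ± 0.08 (adjusted p = 0.144). In contrast, 1420622_a_at read 3032 and 5649 in Icsbp-deficient against 3157 and 5193 in wild type GMP, at -0.01 ± 0.11 (adjusted p = 0.963). The dim 1431182_at read 243 and 204 against 217 and 252, with ratios of opposite sign on the array types and an adjusted p of 0.935. The groups overlapped across array types for all 4 probe sets. The ending _x_at marks probe sets in which some probes are near-identical to other sequences, so the 2 brightest readings of Hspa8 may include related transcripts.

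The J protein Dnaja1, which delivers clients to Hspa8, did not pass. Probe set 1416288_at read 2794 and 3849 in Icsbp-deficient GMP, against 2889 and 4040 in wild type GMP, at -0.07 ± 0.11 (limma adjusted p = 0.801). The second, 1460179_at, read 1496 and 1533 in Icsbp-deficient against 1994 and 1349 in wild type GMP. It was therefore lower on the 430A arrays, at -0.39, and higher on the MOE430_2 arrays, at 0.20 (adjusted p = 0.795). The 95% interval of the mean log2 ratio ran from -0.31 to 0.18 for the first probe set and from -0.45 to 0.25 for the second.

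Hspa4, the HSP110 relative that also resets HSP70, was lower on both array types with all 3 shared probe sets, none of which passed over all probe sets. The brightest, 1416146_at, read 1676 and 2448 in Icsbp-deficient GMP, against 2614 and 3087 in wild type GMP, a mean log2 ratio of -0.47 ± 0.13 (limma adjusted p = 0.0646). The groups were apart here and for 1435194_at, at 518 and 419 against 712 and 548 (-0.37 ± 0.15, adjusted p = 0.220). Probe set 1416147_at read 403 and 248 against 500 and 304, at -0.24 ± 0.16 (adjusted p = 0.470), and the groups overlapped.

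Hsp90aa1, the stress-inducible HSP90 of the cytosol, had 3 bright probe sets and 0 calls. Probe set 1426645_at read 7224 and 8864 in Icsbp-deficient GMP, against 7921 and 10311 in wild type GMP, at -0.31 ± 0.09 (limma adjusted p = 0.107). Probe set 1438902_a_at read 7116 and 10955 against 8590 and 11225, at -0.29 ± 0.09 (adjusted p = 0.0983). Both were lower within each array type, by amounts smaller than the difference between the types. With scaling alone they were at -0.17 and -0.15 (limma adjusted p = 0.495 and 0.581). The third, 1437497_a_at, read 4884 and 7684 against 6418 and 6630, so that it was lower on the 430A arrays (-0.42) and higher on the MOE430_2 arrays (0.10; adjusted p = 0.565). Over the 14 tested cytosolic and nuclear member probe sets the median log2 ratio was -0.27.

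Hspa5, the ER HSP70 known as BiP, had a median of -0.17 over 2 probe sets, and neither passed. This was the closest to 0 among the compartments, but Hspa5 is the only ER member. By gene, the medians of the cytosolic Dnaja1 (-0.08) and Hspa8 (-0.14) were closer to 0. Probe set 1427464_s_at read 4895 and 8245 in Icsbp-deficient GMP, against 5492 and 8518 in wild type GMP, at -0.20 ± 0.09 (limma adjusted p = 0.287). Probe set 1416064_a_at, among the brightest of all members, read 11019 and 16492 in Icsbp-deficient against 11830 and 14331 in wild type GMP. It was thus lower on the 430A arrays and higher on the MOE430_2 arrays before quantile normalization, and its normalized log2 ratio was -0.13 ± 0.08 (adjusted p = 0.456). With scaling alone that ratio was 0.05. The difference between compartments was not tested. The 250 bases before the Hspa5 start (chr2:34771840-34772089, plus strand) are shown because they hold the only ER stress element among the matched members (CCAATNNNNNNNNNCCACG, searched on both strands, its fixed bases in capitals), a motif in 0.119% of all windows.
Hspa5: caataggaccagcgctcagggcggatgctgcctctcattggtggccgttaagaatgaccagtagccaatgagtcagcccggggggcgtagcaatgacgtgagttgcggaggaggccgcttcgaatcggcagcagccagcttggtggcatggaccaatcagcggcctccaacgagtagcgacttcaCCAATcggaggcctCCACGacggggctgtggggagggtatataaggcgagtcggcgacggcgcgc
The 6 probe sets on the MOE430_2 array only have 1 array a genotype and no test. Dnaja1 (1459835_s_at) read 782 in Icsbp-deficient against 947 in wild type GMP, Hspa5 (1447824_x_at) 1199 against 1036, and Hspa9 (1447728_x_at) 163 against 207. Their log2 ratios were -0.25, 0.21 and -0.22, and none reached 1.5-fold, which 10.3% of the array's probe sets above the same signal level did in either direction. The other 3, for Hspa4 and Hsp90aa1, read between 38.1 and 68.1 on both arrays, below the signal filter.

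With each gene read by its brightest tested probe set and p-values adjusted over 7820 genes, 5 of the 9 genes fell and 0 rose, where 3.29% of all tested genes were called lower and 4.12% higher. These were Hspa8 (limma adjusted p = 0.0132), Hspe1 (0.0298), Hspd1 (0.0314), Hsph1 (0.0360) and Hspa4 (0.0439). Hsp90aa1 (0.0815), Hspa9 (0.378), Hspa5 (0.431) and Dnaja1 (0.775) did not pass. The calls are near the threshold. By limma without the filter on low signals, and without the intensity trend in the variance, 0 member probe sets were called, with 13 and 10 at an unadjusted p under 0.05.

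Beyond the members, 128 other genes of the chaperone system were listed by class, and 102 were tested. Of these 1 fell and 2 rose, where 3.29% of all tested genes were called lower and 4.12% higher, so the called shares were no larger than over all genes. A ratio below 0 was seen in 69.6% of them, with a median log2 ratio of -0.12, against 51.6% and a median of -0.01 over all 7820 tested genes. The cytosolic chaperonin TRiC, a ring that folds actin and tubulin, had all 8 subunits at a mean log2 ratio below 0, with a median of -0.23. On single array types this did not always hold, as Cct6a was at 0.07 on the 430A arrays and -0.46 on the MOE430_2 arrays. Cct2 read 6239 in Icsbp-deficient against 6153 in wild type GMP on the 430A arrays and was at -0.05 there after quantile normalization. Its subunit Cct8 read 3056 and 3790 in Icsbp-deficient GMP against 4355 and 4905 in wild type GMP and fell by 0.46 ± 0.11 on the log2 scale (limma adjusted p = 0.0273), while Cct4, at -0.08 (adjusted p = 0.714), was the subunit closest to 0. The HSP90 cochaperones lay below 0 in 12 of 16 cases, with a median of -0.21, 0 calls by limma and 3 genes at an unadjusted p under 0.05, which 1665 of the 7820 tested genes also had. They ran from the immunophilin Fkbp4 at -0.42 (adjusted p = 0.0630) to its relative Fkbp5 at 0.09 (adjusted p = 0.738).

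The rises were in single genes. Dnajc13, a J protein of endosomes, read 2120 and 2344 in Icsbp-deficient GMP, against 1191 and 1305 in wild type GMP, with the groups apart. It rose 1.76-fold, at 0.82 ± 0.12 (limma adjusted p = 0.00250), with 0.81 and 0.83 on the 430A and MOE430_2 arrays. Ero1a, the ER oxidase that recharges protein disulfide isomerase, read 3318 and 3263 in Icsbp-deficient against 2145 and 2270 in wild type GMP. It rose 1.48-fold, at 0.57 ± 0.12 (adjusted p = 0.0137). In the class of J proteins outside the ER list, 20 of which were tested, the lowest was Dnajb4 at -0.34 (adjusted p = 0.249), and the class median was -0.06.

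ER genes other than Hspa5 were divided, with 14 of 24 below 0 and a median of -0.05. The lowest was Dnajc10, a J protein and disulfide reductase, at -0.41 (limma adjusted p = 0.102). Nucleotide exchange factors were divided too, with 6 of 11 below 0, from Bag2 at -0.43 (adjusted p = 0.154) to the ER factor Hyou1 at 0.41 (adjusted p = 0.0884). Mitochondrial chaperones, proteases and import receptors lay below 0 in 9 of 11 cases with a median of -0.16. They ran from the import receptor Tomm70a at -0.30 (adjusted p = 0.207) to the unfoldase Clpx at 0.49 (adjusted p = 0.185), whose ratio was 0.93 for the 430A type and 0.06 for the MOE430_2 type. Prefoldin, which feeds TRiC, lay below 0 in 4 of 5 cases, from Vbp1 at -0.30 (adjusted p = 0.156) to Pfdn5 at 0.36 (adjusted p = 0.210).

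Of the other HSP70 and HSP110 genes 4 of 9 were tested, with Hspa2 lowest at -0.29 (limma adjusted p = 0.323) and Hspa4l highest at 0.12 (adjusted p = 0.676). The inducible HSP70 gene Hspa1b and its J protein Dnajb1, singled out after their values were seen because both are classical heat shock genes, did not pass. Hspa1b read 179 and 199.9 in Icsbp-deficient GMP against 464 and 63.9 in wild type GMP, so that its log2 ratios of -1.17 and 1.17 cancelled. Dnajb1 read 1206 and 1208 in Icsbp-deficient against 1195 and 1260 in wild type GMP, at -0.02 ± 0.13 (adjusted p = 0.953). Of 9 small heat shock proteins 2 were tested, with a median of 0.03. Of 5 genes of the heat shock factors and their binding protein only Hsbp1 was tested.

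**Figure D4:**
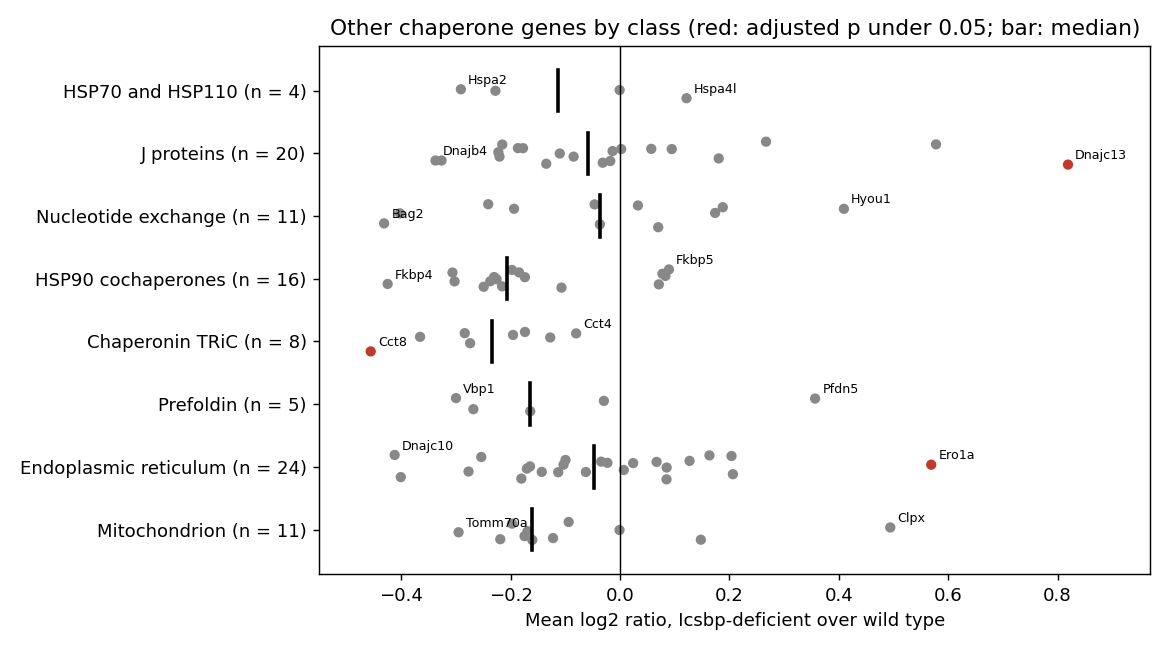
Mean log2 ratio of Icsbp-deficient over wild type for other chaperone genes, in classes with at least 4 tested genes. Each point is a gene, the bar is the class median, and the genes that passed (red) are Dnajc13 and Ero1a above 0 and Cct8 below 0, while all 8 TRiC subunits lie below 0.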

How the data were processed

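The data are 4 Affymetrix arrays, 2 Icsbp-deficient and 2 wild type, deposited by the authors as linear signal intensity per probe set. The submitters' processing notes name GCOS for the MOE430_2 values. Labelling used 5 µg of RNA and an ENZO kit for the Icsbp-deficient 430A array, and 1 to 2 µg and a one-cycle kit for both MOE430_2 arrays, per the labels' protocols. The deposited trimmed means were 167 and 498 on the Icsbp-deficient and wild type 430A arrays and 159 and 160.4 on the MOE430_2 arrays, so the 430A values were not on a common scale.

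Signals were scaled so that each array had a trimmed mean of 500 (2% trimmed at each end) over the 22626 shared non-control probe sets. Quantile normalization within each array type followed, on log2(signal + 50), so ratios understate changes of dim probe sets. Probe sets with a mean below the 40th percentile were not tested (9050), which left 13576. Limma 3.58.1 in R 4.3.3 fitted genotype with array type as a block and a variance trend over intensity. P-values were two-sided and adjusted by Benjamini-Hochberg. There was 1 residual degree of freedom, and moderation added 8.89 prior ones. The number of arrays limits the precision. The pairing comes from the array type. The 430A deviations from the genotype means correlated at 0.76 between the genotypes. In data simulated for this comparison over 13576 probe sets, 25 of 50 changes of 0.5 and 50 of 50 of 1 on the log2 scale were called.

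Symbols came from the platform annotation, updated through RefSeq GRCm38.p6 (20351 of 22626 probe sets matched; 20380 had 1 symbol, 691 several and 1555 are unnamed here). All members were named, together with each called gene and the highest and lowest gene of each class of other chaperones with at least 4 tested genes. The members, lists and tests were chosen with earlier results of these data known. Alternatives were other normalizations, offsets, filters and variance models, no block, leaving out each array, and 1 probe set per gene.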

Additional observations from a re-analysis of the deposited data

How the results depend on the processing

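The members stayed mostly below 0, though nearer to the share over all probe sets in some fits with 1 array left out. Their calls did not hold in every setting. The count of member probe sets called, 4 of 22 as reported, was 2 with quantile normalization over all 4 arrays and 2 with an offset of 16. It was 0 without the filter on low signals, 0 without the intensity trend and 0 with no array-type block, with 13, 10 and 0 at an unadjusted p under 0.05. It was 4 with scaling alone, of which 2 were among the 4 reported (the Hspa8 and Hspd1 calls were lost), 3 with cyclic loess, 5 with an offset of 100, 5 with the 60th percentile filter and 5 with 1 probe set per gene. Over all probe sets the 696 calls became 266 without the filter, 267 without the trend and 1 with no block. The 3 calls among other chaperone genes became 6 with scaling alone, 5 with an offset of 100, 8 with the 60th percentile filter, 1 without the trend and 0 with no block. The cause was not tested.

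No single array can be left out with the block in place, so each was left out of the fit without it, which sets arrays of different types against each other. The lone array left in a genotype was assumed to vary like the others. This gave 37 to 55 calls over all probe sets, 0 among members and 0 among other chaperones each time, and the members' median log2 ratio ran from -0.46 to -0.15. Some ratios changed sign, with every adjusted p of a changed ratio above 0.88. With scaling alone Hspa8 1420622_a_at was at 0.031 and Hspa5 1416064_a_at at 0.050. With single arrays left out, Hspa8 ran from -0.43 to 0.40 (1420622_a_at), -0.57 to 0.066 (1420623_x_at), -0.13 to 0.048 (1431182_at) and -1.06 to 0.10 (1455789_x_at). Hspa4 1416147_at ran from -0.57 to 0.090, Dnaja1 from -0.31 to 0.18 (1416288_at) and -0.37 to 0.17 (1460179_at), and Hsp90aa1 1437497_a_at from -0.46 to 0.14. Hspa5 ran from -0.38 to 0.12 (1416064_a_at) and -0.55 to 0.14 (1427464_s_at), and Hspa9 1418503_at from -0.84 to 0.13. Among other chaperones Hspa2 ran from -0.67 to 0.089, Hspa4l from -0.059 to 0.30, Hyou1 from -0.013 to 0.83 and Cct4 from -0.35 to 0.19. The cause was not tested.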
